A study of Mus musculus with 18 samples.

Results

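Left ventricular RNA from mice killed 24 h after coronary ligation was compared with RNA from mice killed 6 h after ligation, gene by gene. The comparison used the 3 libraries labelled MI at 24 h and the 3 labelled MI at 6 h, 6 of the 18 libraries in the series, each from 1 mouse. Of the 30583 genes in the count table, 16311 passed the filter on low counts and were tested. All mice were 12-week-old C57BL/6JR males, anaesthetised with sodium pentobarbital, and in both groups the left anterior descending coronary artery was tied to produce a myocardial infarction (MI). The other 12 libraries came from sham-operated mice, in which the suture was passed and not tied, and from mice killed 10 min, 1 h or 72 h after ligation; they entered the fit as a source of the spread between replicates, and sham and 72 h levels are given where they place a value.

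The dose of pentobarbital printed in the labels rises from sample to sample, 55, 56 and 57 mg/kg at 6 h and 58, 59 and 60 mg/kg at 24 h, so the labelled dose and the time cannot be told apart. The rise runs through all ligated groups, from 50 mg/kg in the first 10 min library to 63 mg/kg in the last 72 h library. Whether the printed doses were those given was not tested. No sham group is labelled for 6 or 24 h, so the course of the operation and that of the infarct cannot be told apart either, and neither can the hours after ligation and the time of day. The labels give cardiomyocytes as the cell type, but the source is myocardial tissue of the infarcted ventricle and no separation of cells is described. Markers of endothelium, fibroblasts and leukocytes were all present (summed endothelial markers 5522, 4673 and 5222 CPM at 6 h and 3016, 3098 and 2875 CPM at 24 h), and the libraries are read here as whole tissue. In whole tissue, fewer cells of a type and less RNA per cell cannot be told apart.

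Within hours of a coronary occlusion, surviving and dying heart cells switch on stress and immediate early genes and release chemokines that draw neutrophils from the blood. Over the following day monocytes arrive and become macrophages that take up dead cells, fibroblasts leave their resting state and begin to lay down matrix, and some of the resident cells enter the cell cycle. Cardiomyocytes draw most of their energy from fatty acids burnt in mitochondria, and the contractile and mitochondrial messages of muscle make up much of the RNA of a healthy ventricle.

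The 6 libraries held 18.3 to 25.1 M counts, so their depths were similar. Mitochondrially encoded genes took 22.8% to 27.3% of the counts at 6 h and 17.7% to 24% at 24 h. On the 500 most variable genes the mean distance was 48.5 between the times (log2 CPM units, Euclidean), 38.9 among the 24 h libraries and 31.6 among the 6 h libraries. Replicate 1 at 6 h and replicate 3 at 24 h stood apart from the others along the second principal component, which held 37.1% of the variance against 47.7% for the first. Both had the highest summed neutrophil markers of their group (1169, 520.1 and 316 CPM at 6 h and 362, 131 and 1297 CPM at 24 h). The 6 h replicate 1 also carried transcripts of the atrium: Sln had 715 counts and Bmp10 had 355, both at 0 in the other 5 libraries. Myl7, the atrial light chain, had 49.3, 0.0478 and 0 CPM at 6 h and 0.173, 0.0354 and 0.103 CPM at 24 h. Values without the 2 set-apart libraries are given beside a number of the results below, and 24 h replicate 2 was left out only on its own. Levels are counts per M counts after TMM scaling (CPM), a scaling that sets the libraries equal over the bulk of genes, and are listed in the order of replicates 1, 2 and 3.

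**Figure D1:**
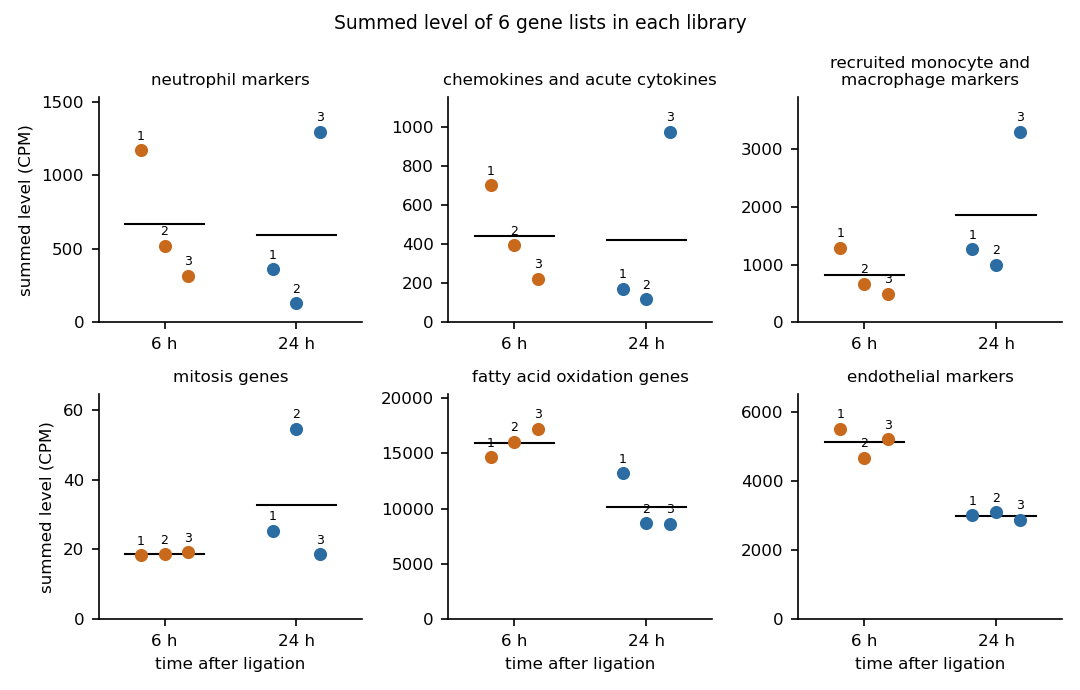
Summed level (CPM, vertical axis, from 0) of the members of 6 gene lists in each library, 6 h (orange) and 24 h (blue); numbers are replicates and horizontal lines are group means. Replicate 1 at 6 h and replicate 3 at 24 h carry the most neutrophil marker and chemokine RNA of their groups, whereas for the endothelial markers all 24 h libraries (2875 to 3098 CPM) lie below all 6 h libraries (4673 to 5522 CPM).

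With edgeR's quasi-likelihood test, 4541 of 16311 genes (27.8%) passed an adjusted p of 0.05, 2311 higher at 24 h (14.2%) and 2230 lower (13.7%). At least 2-fold changes made up 1164 (7.14%). Of these, 692 were at least 2-fold higher (4.24%) and 472 at least 2-fold lower (2.89%). The 3 libraries of one time lay wholly beyond the 3 of the other for 5313 genes (32.6%). These were 2803 genes in the direction of an increase (17.2%) and 2510 in that of a decrease (15.4%). The balance of increases and decreases depended on the scaling: 50.9% of the calls were increases with TMM and 88% when libraries were scaled by their totals (6880 calls, 42.2%), which shifted the median over all tested genes from 0.02 to 0.33 (log2). A fit to the 6 libraries alone, with their own spread, called 1024 of 14810 genes (6.91%, 3.64% higher and 3.27% lower), and 1022 of these were among the 4541. The fit that left out the 2 set-apart libraries called 11.2% of genes higher and 10.7% lower. Counts of list members from either fit, given below, are to be set against the shares of that fit. Fold changes below are relative to TMM scaling.

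Genes were ranked by log2 fold change among those that passed the test, had a mean of at least 50 counts and showed no overlap between the times. Arg1 had the largest increase with all libraries in the fit. Arg1 (ENSMUSG00000019987, chromosome 10, 24915221 to 24927484 in GRCm38) encodes arginase 1, which breaks down arginine and marks macrophages of wound repair. Its level was 15.2, 10.5 and 1.92 CPM at 6 h and 140.1, 52.3 and 602 CPM at 24 h, so every 24 h library lay above every 6 h library, with the set-apart replicate 3 highest (4.85 on the log2 scale with an SE of 0.82, adjusted p = 0.00106 in edgeR; adjusted p = 0.082 when only the 6 libraries were fitted). Spp1 (ENSMUSG00000029304, chromosome 5, 104435118 to 104441050), which encodes osteopontin, a secreted matrix and macrophage protein, had 23.7, 10.6 and 2.72 CPM at 6 h and 154, 158 and 363 CPM at 24 h (4.20 on the log2 scale with an SE of 0.58, adjusted p = 0.000285 in edgeR; adjusted p = 0.0521 on the 6 libraries alone). Without 24 h replicate 3 the log2 fold change of Arg1 was 3.39, below those of Sprr1a (3.77), Spp1 (3.67) and Cxcr6 (3.51), so its rank rests on that library. For both genes sham stood near 0, at a mean of 0.0934 CPM for Arg1 and 0.157 CPM for Spp1. At 72 h the Spp1 mean was 1119 CPM, above its 24 h mean of 225 CPM, while that of Arg1 was below its 24 h mean of 265 CPM.

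The next increases came from several kinds of gene. Sprr1a, a small proline-rich protein induced in stressed cardiomyocytes, had 2.09, 1.39 and 1.65 CPM at 6 h and 15.6, 30.5 and 15.8 CPM at 24 h, an increase of 3.61 on the log2 scale with little spread at 6 h (edgeR adjusted p = 3.16e-06). Cxcr6, a chemokine receptor of lymphocytes and other leukocytes, had 0.954, 0.335 and 0.586 CPM at 6 h and 5.22, 8.74 and 8.82 CPM at 24 h (edgeR adjusted p = 3.31e-05). Coagulation factors were among them: F7 rose by 3.63 and F10 by 3.11 on the log2 scale. F10 was far highest in 24 h replicate 3 (5.13, 3.3 and 1.54 CPM at 6 h and 14.6, 6.15 and 65.1 CPM at 24 h), and without the 2 set-apart libraries its log2 fold change was 2.08; that of F7 was 2.93. Ikbke, a kinase of innate immune signalling, followed the same library, with 1.85, 2.2 and 1.54 CPM at 6 h and 5.05, 5.87 and 27.7 CPM at 24 h, and had a log2 fold change of 1.55 without it. Mmp12, the macrophage elastase, rose by 2.73, Ltbp2, a matrix protein of elastic microfibrils, by 2.72, and Tubb3, a beta-tubulin, by 2.65 on the log2 scale. The list closes with the cell cycle genes Top2a and E2f1, described further on.

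Serpina3f had the largest decrease by the same ranking. Serpina3f (ENSMUSG00000066363, chromosome 12, 104214544 to 104221129) is one of a cluster of similar mouse serine protease inhibitor genes, among which reads can be split, so its level is uncertain. Its level was 10.5, 5.79 and 7.56 CPM at 6 h and 0.0432, 0.0707 and 0.206 CPM at 24 h (-6.23 on the log2 scale with an SE of 0.45, adjusted p = 2.38e-07 in edgeR; adjusted p = 0.00366 on the 6 libraries alone), and in sham it averaged 0.0148 CPM. Pdk4, a pyruvate dehydrogenase kinase switched on by fatty acids and fasting, had 2370.2, 2210.3 and 2949.9 CPM at 6 h and 328, 122 and 573 CPM at 24 h. Every 24 h library lay far below every 6 h library (-2.88 on the log2 scale with an SE of 0.53, adjusted p = 0.00159 in edgeR). Cntfr, the receptor of ciliary neurotrophic factor, was more uniform, with 11, 12.7 and 15.3 CPM at 6 h and 2.24, 1.95 and 1.55 CPM at 24 h (edgeR adjusted p = 1.75e-06). Arc, an activity-induced immediate early gene, had 84, 35.6 and 55.5 CPM at 6 h and 5.18, 7.82 and 11.7 CPM at 24 h (edgeR adjusted p = 1.80e-05). Ahsg, the plasma protein fetuin A, fell by 2.88, Frat2, a regulator of Wnt signalling, by 2.68, and Ptx3, a secreted pattern recognition protein of early inflammation, by 2.57 on the log2 scale. Cyp1a1, a cytochrome of the aryl hydrocarbon receptor response, fell by 3.47, but its sham mean of 287 CPM was far above both times, and the call was lost without 24 h replicate 2 or 3.

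**Figure D2:**
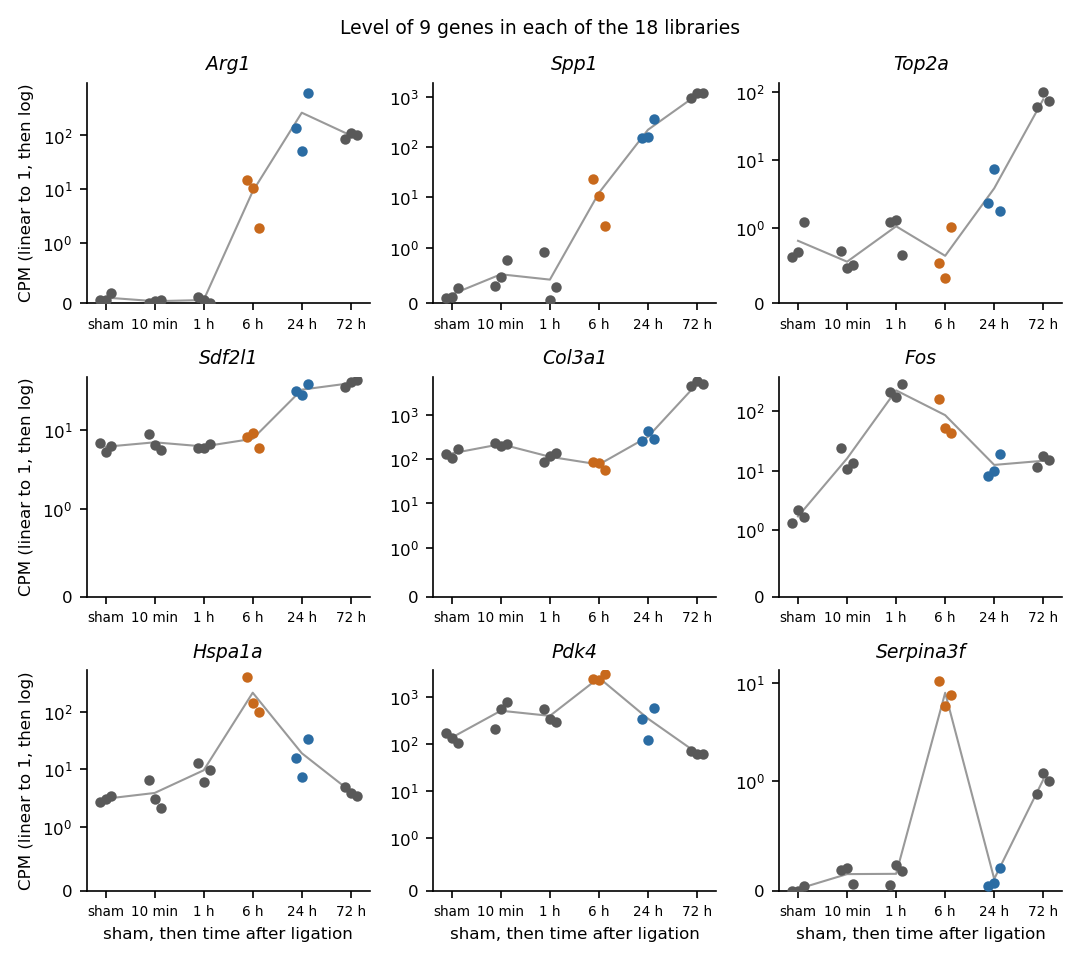
Level of 9 genes (CPM, vertical axis, linear up to 1 and logarithmic above) in all 18 libraries, by group along the horizontal axis; points are libraries, grey lines join group means, and the 6 h and 24 h libraries are orange and blue. Arg1, Spp1, Sdf2l1 and Col3a1 lie higher at 24 h than at 6 h in every library, and Fos, Hspa1a, Pdk4 and Serpina3f lower.

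Immediate early genes are transcription factors and feedback regulators that respond to a stimulus without new protein. Of 25 tested, 14 fell and 0 rose, against 13.7% and 14.2% of all genes, and the median log2 fold change was -0.82. Fos, a partner in the AP-1 transcription factor, had 159, 51.2 and 42.9 CPM at 6 h and 8.16, 9.94 and 19.2 CPM at 24 h (-2.77 on the log2 scale with an SE of 0.51, adjusted p = 0.00162 in edgeR). Fosb, its relative (ENSMUSG00000003545, chromosome 7, 19302696 to 19310051), had 54.8, 11.8 and 15.4 CPM at 6 h and 2.68, 2.51 and 5.26 CPM at 24 h and fell by 2.99 on the log2 scale. At 24 h both means were still above sham, which averaged 1.71 CPM for Fos and 1.19 CPM for Fosb. Egr1, a zinc finger factor, had 412, 149 and 175 CPM at 6 h and 21.8, 35.6 and 72.4 CPM at 24 h. Btg2, an antiproliferative gene, had 307, 155 and 198 CPM at 6 h and 62.9, 77.9 and 114 CPM at 24 h (edgeR adjusted p = 0.000466). Klf4, another zinc finger factor, had 93, 79.8 and 94.8 CPM at 6 h and 53, 55.8 and 42.7 CPM at 24 h. Fos, Fosb, Egr1 and Btg2 were each highest in the set-apart 6 h replicate 1. Without the 2 set-apart libraries 17 of the 25 were called lower (10.7% of all genes were), and with the 6 libraries alone 2 were.

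Heat shock genes, the chaperones that refold damaged protein, gave 5 decreases and 1 increase among 20 tested, against 13.7% and 14.2% of all genes. Hspa1a (ENSMUSG00000091971, chromosome 17, 34969190 to 34972156), the inducible HSP70, had 398, 141 and 97.9 CPM at 6 h and 15.7, 7.36 and 33.6 CPM at 24 h (-3.51 on the log2 scale with an SE of 0.60, adjusted p = 0.00112 in edgeR; adjusted p = 0.0643 on the 6 libraries alone). Its neighbour Hspa1b had 454, 165 and 94.9 CPM at 6 h and 18.3, 10.8 and 36.5 CPM at 24 h; the genes are near-identical copies, and how reads were split between them is uncertain. The decreases of Dnajb1, an HSP40 cofactor of HSP70 (109, 44.2 and 45.6 CPM at 6 h and 33.7, 33.3 and 38.1 CPM at 24 h), and Bag3, a cochaperone of HSP70 (275, 171 and 226 CPM at 6 h and 172, 153 and 156 CPM at 24 h), were smaller, and Fkbp4, a cochaperone of HSP90, fell by 0.79 on the log2 scale. Chordc1, an HSP90 cochaperone, rose, with 28.1, 25.5 and 23.4 CPM at 6 h and 43.1, 38.5 and 39.1 CPM at 24 h. The median of the 20 was -0.19 with TMM and 0.11 with scaling by library totals, so the list as a whole has no direction that holds under both. Hspa1a and Hspa1b had log2 fold changes of -3.19 and -3.14 under the latter. Bag3 lost its call without 6 h replicate 1.

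The heat shock factor binds runs of GAA and TTC, and the letters GAANNTTC or TTCNNGAA (each its own reverse complement, so both strands were covered) stand in 12 of 21 promoters found for 15 of these genes (57.1%) against 15.1% of 32851 RefSeq promoters of the same 300-base length (250 before to 50 after each start). The 250 bases before the start of Hspa1a are shown, since this gene fell most of the list. They span chr17:34972157-34972406 of GRCm38.p6 on the minus strand, with the match in capitals.

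Hspa1a: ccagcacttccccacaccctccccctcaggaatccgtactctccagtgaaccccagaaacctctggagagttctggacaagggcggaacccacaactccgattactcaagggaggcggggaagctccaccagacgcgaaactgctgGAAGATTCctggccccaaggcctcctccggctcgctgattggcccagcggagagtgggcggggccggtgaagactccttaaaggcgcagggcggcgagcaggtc

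Endoplasmic reticulum (ER) stress genes encode the chaperones and disulphide isomerases that fold secreted and membrane protein, and 10 of 20 tested rose and 2 fell, against 14.2% and 13.7% of all genes (median log2 fold change 0.42). Sdf2l1, a cofactor of ER folding (ENSMUSG00000022769, chromosome 16, 17130138 to 17132383), had 8.34, 9.19 and 5.97 CPM at 6 h and 31.9, 28.2 and 38.7 CPM at 24 h (2.07 on the log2 scale with an SE of 0.18, adjusted p = 1.15e-06 in edgeR; adjusted p = 0.0048 on the 6 libraries alone), and its sham mean of 6.21 CPM was like that at 6 h. Pdia4, a disulphide isomerase, had 24.9, 22 and 17.8 CPM at 6 h and 62.4, 62.2 and 92.8 CPM at 24 h. Manf, a small secreted ER protein that protects stressed cells, had 56.7, 44.4 and 39.9 CPM at 6 h and 137, 111 and 156 CPM at 24 h. The 24 h libraries were above all 6 h libraries for each of the 3, and Pdia6, another isomerase, rose by 0.83. Creld2, Hspa5 and Hsp90b1, chosen after their values were seen, rose by 1.72, 0.72 and 0.87 on the log2 scale. Hspa5, the central ER chaperone BiP, had 552, 452 and 400.4 CPM at 6 h and 853, 529.8 and 936 CPM at 24 h, so the times overlapped. The 2 decreases were Ppp1r15a, which restarts translation after stress (114, 64.6 and 77.7 CPM at 6 h and 27.1, 31.5 and 63.1 CPM at 24 h), and Herpud1, which helps clear unfolded protein from the ER (148, 243 and 202 CPM at 6 h and 164, 104 and 99 CPM at 24 h). With the 6 libraries alone 6 of the 20 were called higher and 0 lower (3.64% and 3.27% of all genes were). Without the 2 set-apart libraries the median was 0.21. Herpud1 lost its call without 24 h replicate 2 or 6 h replicate 2.

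A motif of ER stress genes, CCAAT and CCACG with any 9 bases between them, was searched on either strand after these values were seen. It stood in 5 of 20 promoters found for 19 of the listed genes (25%) and in 0.119% of all 32851 promoters. The 5 were those of Creld2, Dnajc3, Hsp90b1, Hspa5 and Pdia6; 4 of them rose, and Dnajc3, a cochaperone of BiP, had a log2 fold change of 0.15 (edgeR adjusted p = 0.365). The 250 bases before the start are given for the 4 that rose, with the matches in capitals, to show where the motif lies. Creld2 is at chr15:88819396-88819645 (plus strand), Hspa5 at chr2:34771840-34772089 (plus), Pdia6 at chr12:17266339-17266588 (plus) and Hsp90b1 at chr10:86705445-86705694 (minus), all in GRCm38.p6. Sdf2l1 and Pdia4, with larger increases, hold no match in their window.

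Creld2: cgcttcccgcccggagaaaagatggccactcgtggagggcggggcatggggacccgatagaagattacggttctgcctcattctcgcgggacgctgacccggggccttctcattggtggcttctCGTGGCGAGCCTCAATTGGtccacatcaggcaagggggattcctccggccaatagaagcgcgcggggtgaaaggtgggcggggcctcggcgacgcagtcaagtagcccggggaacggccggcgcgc
Hspa5: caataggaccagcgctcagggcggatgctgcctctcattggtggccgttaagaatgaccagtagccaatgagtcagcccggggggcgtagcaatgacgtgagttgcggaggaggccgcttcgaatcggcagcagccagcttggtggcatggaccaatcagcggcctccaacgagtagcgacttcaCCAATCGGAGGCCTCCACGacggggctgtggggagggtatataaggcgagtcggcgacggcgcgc
Pdia6: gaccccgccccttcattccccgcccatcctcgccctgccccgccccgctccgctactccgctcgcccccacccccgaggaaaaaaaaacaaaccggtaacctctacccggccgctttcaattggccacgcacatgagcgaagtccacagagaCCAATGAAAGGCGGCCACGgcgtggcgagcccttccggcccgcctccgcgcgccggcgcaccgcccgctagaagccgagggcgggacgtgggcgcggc
Hsp90b1: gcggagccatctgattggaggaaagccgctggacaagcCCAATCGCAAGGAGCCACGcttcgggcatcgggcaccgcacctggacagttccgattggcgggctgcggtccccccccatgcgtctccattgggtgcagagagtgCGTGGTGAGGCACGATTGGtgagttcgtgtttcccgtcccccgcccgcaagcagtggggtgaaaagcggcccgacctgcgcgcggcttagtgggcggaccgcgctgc

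The first matched base lies 126 bases before the start in Creld2, 65 in Hspa5 and 98 in Pdia6, and the 2 matches in Hsp90b1 begin 212 and 107 bases before it. A match is a description of these letters, not a measured site.

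Among the signals and cells of early inflammation, the calls changed with the 2 set-apart libraries. Of 20 chemokines and acute cytokines, 2 rose and 3 fell (median 0.14), close to the 14.2% and 13.7% of all genes. Tnf rose with 1.49, 1.15 and 0.746 CPM at 6 h and 1.55, 1.84 and 16.2 CPM at 24 h, and Il1a with 0.477, 0.383 and 0.266 CPM at 6 h and 0.302, 0.248 and 11.4 CPM at 24 h; both were far highest in 24 h replicate 3, without which the call was lost and the log2 fold change was 0.60 for Tnf and -0.44 for Il1a. Csf2, a growth factor of granulocytes and macrophages, fell, with 3.34, 1.34 and 1.12 CPM at 6 h and 0, 0 and 0.464 CPM at 24 h. Il6 had 45.6, 26.9 and 6.34 CPM at 6 h and 2.11, 0.778 and 13.1 CPM at 24 h and Cxcl1, a neutrophil attractant, 93.9, 53.2 and 25.7 CPM at 6 h and 8.29, 9.13 and 39.1 CPM at 24 h, and both passed the test narrowly (edgeR adjusted p = 0.0451 and 0.0401). Without the 2 set-apart libraries, 10 of the 20 fell and 0 rose (10.7% and 11.2% of all genes did), with a median of -1.40; it was -1.92 without 24 h replicate 3 alone. Cxcl5, a further attractant that did not pass the test on all libraries (122, 68.9 and 62.6 CPM at 6 h and 17.4, 15.7 and 77.3 CPM at 24 h), then had a log2 fold change of -1.99. The fit to the 6 libraries called 0 of the 20. The calls of Tnf and Il1a were also lost without 6 h replicate 2 or 3, that of Il1a without 6 h replicate 1 as well, and those of Il6 and Cxcl1 without replicate 1 or 2 of either time.

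Neutrophil markers spread as widely within each time as between them. Of 17 tested, 1 rose and 0 fell (14.2% and 13.7% of all genes did). The increase was that of Mmp9, a gelatinase that other cells also make (15, 8.56 and 4.21 CPM at 6 h and 20.5, 7.89 and 91.9 CPM at 24 h). S100a9, an abundant calcium-binding protein of neutrophils, had 335, 121 and 38.8 CPM at 6 h and 59.5, 10.1 and 255 CPM at 24 h. Each time thus held both high and low libraries (edgeR adjusted p = 0.647). The summed markers gave 1169, 520.1 and 316 CPM at 6 h and 362, 131 and 1297 CPM at 24 h. Their median log2 fold change of -0.25 became 0.05 under library total scaling and 0.58 without 6 h replicate 1, and it was -1.82 without 24 h replicate 3, so no direction is given. Leaving out the 2 set-apart libraries, 0 rose, 2 fell and the median was -0.53. NF-kB subunits and feedback genes, which transmit and limit inflammatory signals, gave 1 decrease among 15, Rel (36.9, 19.7 and 16.8 CPM at 6 h and 14, 11.8 and 17.2 CPM at 24 h; edgeR adjusted p = 0.014), and their median of -0.10 was 0.20 under library total scaling. Without the 2 set-apart libraries 6 of the 15 fell (10.7% of all genes did). Mmp9 lost its call without 24 h replicate 3, 6 h replicate 2 or 6 h replicate 3, and Rel without 24 h replicate 2 or 6 h replicate 1.

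Markers of recruited monocytes and macrophages rose in 13 of 18 tested and fell in 0, against 14.2% and 13.7% of all genes. Their median log2 fold change was 1.35. Ccr2, the chemokine receptor that brings monocytes out of the marrow (ENSMUSG00000049103, chromosome 9, 124101950 to 124113557), had 11.3, 9.62 and 6.07 CPM at 6 h and 38.8, 44.9 and 79.9 CPM at 24 h (2.60 on the log2 scale with an SE of 0.30, adjusted p = 5.11e-05 in edgeR; adjusted p = 0.0153 on the 6 libraries alone). Cybb, the oxidase subunit of phagocytes, had 7.09, 7.27 and 5.54 CPM at 6 h and 18.3, 16.7 and 28.5 CPM at 24 h. Adgre1, which encodes the macrophage antigen F4/80, had 9.77, 6.22 and 5.59 CPM at 6 h and 19.4, 17.6 and 19.9 CPM at 24 h. Lyz2, lysozyme of myeloid cells, had 173, 154 and 103 CPM at 6 h and 333, 335 and 396 CPM at 24 h. For all 4 the times did not overlap, and 24 h replicate 3 was the highest library. Levels went on to much higher values at 72 h, where Lyz2 averaged 2369 and Adgre1 152 CPM. In the 6-library fit, 8 of the 18 were called higher (3.64% of all genes were), and without the set-apart libraries 13 were (11.2% of all genes).

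Genes of lipid handling and phagocytosis split. Of 20 tested, 7 rose and 5 fell (median 0.06), against 14.2% and 13.7% of all genes. The increases included Trem2, a lipid-sensing receptor of macrophages (3.34, 2.82 and 2.77 CPM at 6 h and 10.6, 15.4 and 12.7 CPM at 24 h; edgeR adjusted p = 6.99e-06), Gpnmb, a membrane protein of lysosome-rich macrophages (1.61, 1.48 and 1.97 CPM at 6 h and 4.88, 8.21 and 5.31 CPM at 24 h), and Lgals3, galectin 3 (25.6, 13.3 and 8.57 CPM at 6 h and 74.4, 62.1 and 148 CPM at 24 h). The decreases included Cd36, a fatty acid transporter (1882, 1988 and 2154 CPM at 6 h and 1482, 818 and 1254 CPM at 24 h), and Lpl, lipoprotein lipase (6199, 5289.7 and 7439 CPM at 6 h and 4980.4, 3408 and 2962 CPM at 24 h), which cardiac muscle and its capillaries also express; Apoe, Abca1 and Ctsl were the others. Resident macrophage markers gave 2 increases and 1 decrease among 13, near or below the 14.2% and 13.7% of all genes, and 3 increases and 0 decreases without the 2 set-apart libraries. Maf, a macrophage transcription factor, had 21.7, 22.5 and 17 CPM at 6 h and 38.2, 39.8 and 45 CPM at 24 h, and C1qc, a part of complement C1q, rose by 0.40 on the log2 scale. Cd163, a haemoglobin scavenger, had 34.1, 43.2 and 36.1 CPM at 6 h and 26.4, 16.5 and 20.9 CPM at 24 h. C1qc lost its call without 24 h replicate 2, 6 h replicate 1 or 6 h replicate 3, and Cd163 without any 1 of 24 h replicates 2 and 3 and 6 h replicates 2 and 3.

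The type I interferon response genes, which limit virus replication, gave 6 increases and 0 decreases among 18, against 14.2% and 13.7% of all genes. Their median was 0.48, and 0.30 without the 2 set-apart libraries. Mx1 had 0.536, 0.718 and 0.373 CPM at 6 h and 1.34, 1.91 and 2.99 CPM at 24 h (1.90 on the log2 scale with an SE of 0.37, adjusted p = 0.00115 in edgeR). Oas1a had 5.01, 1.96 and 2.34 CPM at 6 h and 6.47, 5.09 and 10.7 CPM at 24 h. Usp18, Ifit2 and Isg15 rose by 0.92, 0.44 and 0.96 with overlap between the times. Of the 6, Mx1 was the 1 called with the 6 libraries alone. Ifit2 lost its call without 24 h replicate 2 or 3 or 6 h replicate 2 or 3, Isg15 without 24 h replicate 3 or 6 h replicate 2 or 3, and Usp18 without 24 h replicate 3 or 6 h replicate 2. Complement genes moved both ways. Of 16 tested, 5 fell and 3 rose, against 13.7% and 14.2% of all genes. Serping1, the C1 inhibitor, was among the decreases and had 108, 104 and 105 CPM at 6 h and 68.5, 56.1 and 54.6 CPM at 24 h (-0.83 on the log2 scale with an SE of 0.10, adjusted p = 2.48e-05 in edgeR), with no overlap between the times. The 3 increases were the properdin gene Cfp (13.3, 9.23 and 6.71 CPM at 6 h and 28.7, 32.9 and 49.4 CPM at 24 h), the receptor C3ar1 (9.06, 9.19 and 7.19 CPM at 6 h and 19.2, 19 and 32.1 CPM at 24 h) and C1qc. When both set-apart libraries were left out, 5 rose and 4 fell. Their median was -0.40, and 0.08 among the members kept by the filter of the 6-library fit.

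Genes of energy metabolism fell. All 22 fatty acid oxidation genes tested fell (13.7% of all genes did), with a median log2 fold change of -0.67 and a range of -1.66 to -0.51, and for all 22 the libraries of the 2 times did not overlap (15.4% of all genes were lower without overlap). Acads, a short-chain acyl-CoA dehydrogenase, had 176, 169 and 191 CPM at 6 h and 143, 103 and 97.1 CPM at 24 h (-0.65 on the log2 scale with an SE of 0.13, adjusted p = 0.00186 in edgeR). Eci1, an enoyl-CoA isomerase, had 367, 351 and 429 CPM at 6 h and 279, 206 and 189.8 CPM at 24 h. Acsl1, which activates fatty acids, had 685, 898 and 674 CPM at 6 h and 597, 363 and 377 CPM at 24 h. Echs1, a hydratase of the same cycle, fell by 0.62, and Ucp3, a mitochondrial carrier, by 1.66 on the log2 scale. The sham means of Acads (166 CPM) and Eci1 (403 CPM) were like those at 6 h, and the 72 h means (57.2 and 89.4 CPM) were lower than at 24 h. Ucp3 lost its call without 24 h replicate 2, 6 h replicate 2 or 6 h replicate 3.

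Nuclear genes of oxidative phosphorylation, the respiratory chain and ATP synthase, fell in 28 of 29, against 13.7% of all genes (median -0.61, all 29 negative). Cox7a1, a heart and muscle subunit of cytochrome oxidase, had 1019, 1223 and 1271 CPM at 6 h and 740.1, 647 and 469 CPM at 24 h (-0.92 on the log2 scale with an SE of 0.18, adjusted p = 0.00137 in edgeR). Ndufa9 of complex I fell by 0.62 and Cox6a2, another muscle subunit of cytochrome oxidase, by 0.78 on the log2 scale. Of the 13 mitochondrially encoded genes, 7 fell and 0 rose (median -0.52), with mt-Nd1 at 34180, 33989 and 34658 CPM at 6 h and 24370, 19083 and 24125 CPM at 24 h. mt-Atp6 was led by 6 h replicate 1 (3996, 2392 and 2013 CPM at 6 h and 1429.8, 1655 and 1619.6 CPM at 24 h), and its call was lost without that library. Under library total scaling the medians of the 3 lists were -0.38, -0.31 and -0.23, with 16, 15 and 1 genes called lower (5.08% of all genes were). When fitted without the other 12 libraries, 2 of the 22, 2 of the 29 and 0 of the 13 were called lower (3.27% of all genes were).

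Glycolysis and hypoxia genes were mixed, with 9 decreases and 2 increases among 27 tested, against 13.7% and 14.2% of all genes. Muscle enzymes were among the decreases: Ldhb, the heart lactate dehydrogenase (1314, 1245 and 1592 CPM at 6 h and 934, 699 and 597 CPM at 24 h), Eno3, the muscle enolase (940.4, 1022 and 1058 CPM at 6 h and 657, 620.0 and 419.9 CPM at 24 h), and Pfkm, the muscle phosphofructokinase (883, 1034 and 993 CPM at 6 h and 748, 529 and 388 CPM at 24 h), besides Pdk4. The increases were Eno1, the enolase of most other cells (214, 192 and 199 CPM at 6 h and 298, 283 and 670.5 CPM at 24 h), and Pgam1, the phosphoglycerate mutase of most other cells (75, 59.6 and 58.2 CPM at 6 h and 84.4, 77.6 and 144 CPM at 24 h). The median was -0.13 and became 0.19 under library total scaling. Pgam1 lost its call without 24 h replicate 3, 6 h replicate 2 or 6 h replicate 3.

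Cardiomyocyte contractile genes fell in 11 of 20 sarcomere genes and rose in 0 (13.7% and 14.2% of all genes did), with a median of -0.55. Myh6, the main heavy chain of the adult mouse ventricle, had 19625, 20710 and 24211 CPM at 6 h and 12169, 11310 and 6488 CPM at 24 h (-1.11 on the log2 scale with an SE of 0.19, adjusted p = 0.000431 in edgeR). Lmod2, which sets thin filament length, had 673, 620.2 and 706 CPM at 6 h and 446, 389 and 359.5 CPM at 24 h. Myoz2, a Z-disc protein, had 1061, 1019.6 and 1161 CPM at 6 h and 736, 581 and 436 CPM at 24 h. In calcium handling and ion channels 9 of 21 fell and 1 rose (median -0.31, and -0.17 without the 2 set-apart libraries). Hrc, a calcium-binding protein of the sarcoplasmic reticulum, had 771, 905 and 935 CPM at 6 h and 517, 363 and 299 CPM at 24 h (-1.15 on the log2 scale with an SE of 0.18, adjusted p = 0.000241 in edgeR). Kcnip2, a subunit of the transient outward potassium current, had 164, 136 and 203 CPM at 6 h and 75.4, 52.1 and 29.6 CPM at 24 h. Kcna5, another potassium channel, fell by 1.21. Kcnq1, a channel of the delayed rectifier current, went up, with 20.7, 23.3 and 19.7 CPM at 6 h and 43, 37.4 and 26.2 CPM at 24 h. The lowest 24 h value of Myh6, Myoz2, Hrc and Kcnip2 was that of the set-apart replicate 3. With the 6 libraries alone 3 of the 20 sarcomere genes were called lower, and 3 of the 21 calcium and channel genes (3.27% of all genes were).

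Cardiac stress genes, which mark strained or damaged muscle, gave 3 increases and 3 decreases among 20, close to the 14.2% and 13.7% of all genes. Fhl1, a stretch-sensing LIM protein, had 422, 219 and 439 CPM at 6 h and 645, 898 and 682 CPM at 24 h (1.04 on the log2 scale with an SE of 0.20, adjusted p = 0.0014 in edgeR). Nppa, the atrial natriuretic peptide, had 391, 112 and 285 CPM at 6 h and 636, 808 and 560.0 CPM at 24 h (edgeR adjusted p = 0.0121). It is also an atrial marker, and its highest 6 h level was in replicate 1, which carried atrial transcripts. Whether atrial RNA added to that level was not tested. Xirp2 rose and passed narrowly (edgeR adjusted p = 0.0497). Xirp1, an actin-binding protein of the intercalated disc, had 1523, 425 and 784 CPM at 6 h and 323, 258 and 421 CPM at 24 h. Rcan1, a calcineurin inhibitor, had 444, 277 and 323 CPM at 6 h and 184, 171 and 256 CPM at 24 h, and Mypn, myopalladin, fell by 0.45. In the 6-library fit 0 of the 20 were called.

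Cell cycle genes rose from a low level. Of 29 DNA replication genes, 22 rose and 0 fell (14.2% and 13.7% of all genes did). All 29 had a positive log2 fold change, and the median was 0.92. Mcm5, part of the replicative helicase, had 2.98, 4.31 and 3.52 CPM at 6 h and 8.07, 19 and 11.8 CPM at 24 h (1.84 on the log2 scale with an SE of 0.24, adjusted p = 5.11e-05 in edgeR; adjusted p = 0.0212 on the 6 libraries alone). Uhrf1, which links replication to maintenance of DNA methylation, had 2.21, 1.67 and 1.54 CPM at 6 h and 5.65, 13.5 and 8.87 CPM at 24 h. Gins2, another helicase factor, had 0.119, 0.718 and 0.586 CPM at 6 h and 2.29, 4 and 2.53 CPM at 24 h. Mcm2 rose by 1.13 and Mcm10, chosen after its values were seen, by 3.29 on the log2 scale. E2f1, a transcription factor that drives S phase genes, had 0.536, 0.383 and 1.23 CPM at 6 h and 3.02, 6.97 and 3.2 CPM at 24 h. In all of these the 24 h libraries lay above the 6 h libraries, with replicate 2 highest. In the 6-library fit, 10 of the 29 were called higher (3.64% of all genes were).

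Mitosis genes gave 15 increases and 1 decrease among 28 (median 1.63), against 14.2% and 13.7% of all genes. Top2a, the topoisomerase that untangles chromosomes (ENSMUSG00000020914, chromosome 11, 98992943 to 99024189), had 0.536, 0.335 and 1.01 CPM at 6 h and 2.29, 7.39 and 1.75 CPM at 24 h (2.65 on the log2 scale with an SE of 0.57, adjusted p = 0.0035 in edgeR; adjusted p = 0.058 on the 6 libraries alone). Ccna2, cyclin A2, had 0.179, 0.287 and 0.107 CPM at 6 h and 0.518, 2.09 and 0.67 CPM at 24 h. Tpx2, a spindle factor, had 0.775, 0.861 and 0.479 CPM at 6 h and 1.47, 3.15 and 1.13 CPM at 24 h; Nuf2, a kinetochore protein, rose by 2.67 on the log2 scale. Replicate 2 at 24 h was highest for each, and the summed mitosis genes gave 18.4, 18.7 and 19.2 CPM at 6 h and 25.4, 54.7 and 18.6 CPM at 24 h, so that replicate 3 did not exceed the 6 h libraries in this sum. Cenpf, a centromere protein and the 1 decrease, had 5.07, 8.04 and 7.88 CPM at 6 h and 4.88, 3.18 and 1.19 CPM at 24 h. When fitted without the other 12 libraries, 0 of the 28 were called, and the median was 1.20. At 72 h the level of Top2a averaged 78 and that of Ccna2 31.5 CPM. The median was 0.89 without 24 h replicate 2, and Cenpf lost its call without 24 h replicate 2 or 3 or 6 h replicate 2 or 3.

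Promoters of mitosis genes often carry CCAAT boxes and the cell cycle element TTTGAA or TTCGAA. On either strand CCAAT stood in 20 of 24 promoters found for 23 of the listed genes (83.3%) against 37.4% of all promoters, and TTTGAA or TTCGAA in 19 of 24 (79.2%) against 19.2%. The median log2 fold change was 1.53 for the 19 genes with CCAAT and 2.17 for the 4 without. It was 1.56 for the 18 genes with TTTGAA or TTCGAA and 2.54 for the 5 without. The 250 bases before the start of Top2a, the mitosis gene named by both parts of the rule, are at chr11:99024190-99024439 of GRCm38.p6, minus strand; capitals mark both motifs and their reverse complements ATTGG and TTCAAA.

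Top2a: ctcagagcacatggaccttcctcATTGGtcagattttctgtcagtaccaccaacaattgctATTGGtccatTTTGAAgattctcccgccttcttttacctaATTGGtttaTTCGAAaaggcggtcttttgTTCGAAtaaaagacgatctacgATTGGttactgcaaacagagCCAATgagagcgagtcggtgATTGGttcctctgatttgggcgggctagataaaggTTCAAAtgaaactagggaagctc

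Of 22 collagen and cross-linking genes, 13 rose and 0 fell (median 0.89), against 14.2% and 13.7% of all genes. Col3a1 (ENSMUSG00000026043, chromosome 1, 45311538 to 45349706), a fibrillar collagen of young scar, had 86.7, 84.2 and 56.8 CPM at 6 h and 252, 429 and 286 CPM at 24 h (2.09 on the log2 scale with an SE of 0.22, adjusted p = 1.02e-05 in edgeR; adjusted p = 0.00966 on the 6 libraries alone). Col5a1, which starts collagen fibrils, had 28.3, 23.9 and 21.1 CPM at 6 h and 84.2, 119 and 86.1 CPM at 24 h. Col1a1, the main scar collagen, had 60.7, 49.7 and 42 CPM at 6 h and 128, 239.7 and 139 CPM at 24 h. Serpinh1, the collagen chaperone HSP47, had 209, 176 and 159 CPM at 6 h and 391, 543 and 418 CPM at 24 h. The 6 h means of Col3a1 and Col1a1 (75.9 and 50.8 CPM) lay below sham (135 and 74.4 CPM), and the 72 h means were 5066 and 3549 CPM. With the 6 libraries alone 10 of the 22 were called higher (3.64% of all genes were).

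Matricellular and early wound matrix genes gave 9 increases and 3 decreases among 22, against 14.2% and 13.7% of all genes. Postn, periostin of activated fibroblasts, had 35.8, 22.9 and 19.8 CPM at 6 h and 63.7, 113 and 65.5 CPM at 24 h. Ccn4, a secreted Wnt target, had 4.71, 3.16 and 2.34 CPM at 6 h and 8.68, 9.83 and 12.1 CPM at 24 h. Timp1, an inhibitor of matrix proteases, had 61.4, 41.4 and 41.9 CPM at 6 h and 122, 138 and 262 CPM at 24 h (edgeR adjusted p = 0.00017). The decreases were Ccn1 (516, 156 and 341 CPM at 6 h and 86.6, 109.8 and 206 CPM at 24 h), Adamts1 (559, 208 and 294 CPM at 6 h and 117, 128 and 197 CPM at 24 h) and Thbs2 (37.5, 31 and 32.9 CPM at 6 h and 18, 15.1 and 12 CPM at 24 h); Ccn1 is an early response gene and Adamts1 a protease of proteoglycans. Fibroblast identity genes, which mark the resting state, fell in 9 of 16 and rose in 3 (median -0.53). Dpep1, a surface dipeptidase, had 76.3, 64.6 and 82 CPM at 6 h and 35.3, 22.5 and 22.1 CPM at 24 h (edgeR adjusted p = 4.21e-05). Gsn, gelsolin, had 1687, 1365 and 1441 CPM at 6 h and 812, 546 and 572 CPM at 24 h. Dcn, decorin, had 434, 472 and 387 CPM at 6 h and 283, 231 and 198 CPM at 24 h. Ly6a, a surface antigen of resting fibroblasts and endothelium, had 261, 266 and 245 CPM at 6 h and 147, 152 and 148 CPM at 24 h. Its sham libraries had 115, 121 and 121 CPM, below both times, while for Dpep1, Gsn and Dcn the 24 h libraries lay below sham. The 3 increases were Col15a1, Lum and Cd248, by 1.19, 0.72 and 0.41 on the log2 scale. For Dpep1, Gsn, Dcn and Ly6a all 24 h libraries lay below all 6 h libraries, while for Postn and Timp1 they lay above. In the 6-library fit, 6 of the 16 fibroblast genes were called lower and 1 higher (3.27% and 3.64% of all genes were). Without the 2 set-apart libraries 5 matricellular genes fell (10.7% of all genes did). Ccn1 lost its call without 24 h replicate 1 or 2 or 6 h replicate 1, Cd248 without 24 h replicate 2 or 3 or 6 h replicate 1 or 2, and Lum without 24 h replicate 2.

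Endothelial markers fell in 12 of 16 and rose in 0 (median -0.59), against 13.7% and 14.2% of all genes. Fabp4, a fatty acid carrier of capillaries, had 1223, 1159 and 1435 CPM at 6 h and 642, 691 and 616 CPM at 24 h (-0.97 on the log2 scale with an SE of 0.11, adjusted p = 1.43e-05 in edgeR; adjusted p = 0.0171 on the 6 libraries alone). Rgcc, a cell cycle regulator of endothelium, had 130.2, 85.6 and 96.7 CPM at 6 h and 45.9, 36.8 and 37.8 CPM at 24 h. Ly6c1, of a family of similar genes among which reads can be split, had 294, 324 and 331 CPM at 6 h and 184, 169.7 and 136 CPM at 24 h. Gpihbp1, which anchors lipoprotein lipase in capillaries, had 181, 166 and 216 CPM at 6 h and 121, 109 and 104 CPM at 24 h. The 6 h means of Fabp4 and Rgcc (1272 and 104 CPM) were above sham (684 and 54.8 CPM), and the 24 h means (649.9 and 40.1 CPM) were nearer to it but below it. The summed endothelial markers were 3723, 3899 and 3894 CPM in sham and 3016, 3098 and 2875 CPM at 24 h. Every 24 h library thus lay below every sham library in this sum. Of the 7 endothelial adhesion genes tested 4 fell (13.7% of all genes did). Among them were Sele, E-selectin, which holds leukocytes to the vessel wall (28.7, 21.8 and 10.5 CPM at 6 h and 5.27, 7.43 and 10.4 CPM at 24 h), and Icam1 (64.8, 43.2 and 40.4 CPM at 6 h and 18.4, 17.7 and 44.6 CPM at 24 h). When fitted without the other 12 libraries, 7 of the 16 endothelial markers were called lower (3.27% of all genes were). With library total scaling 6 were (5.08% of all genes). Of the 7 adhesion genes, 0 were called lower with the 6 libraries alone and 1 under library total scaling. Pericyte and smooth muscle markers gave 3 decreases and 1 increase among 14 (13.7% and 14.2% of all genes), with Rgs5 of pericytes at 599.6, 514 and 571 CPM at 6 h and 361, 328 and 248 CPM at 24 h and the contractile Cnn1 at 3.16, 4.26 and 2.61 CPM at 6 h and 6.95, 13.8 and 4.49 CPM at 24 h. Icam1 lost its call without replicate 1 or 2 of either time, and Cnn1 without 24 h replicate 2 or 6 h replicate 3.

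Metallothionein and iron genes gave 6 decreases and 1 increase among 15 (median -0.36), against 13.7% and 14.2% of all genes. Mt1, a metal-binding protein induced by stress hormones and zinc, had 1607, 1662 and 1844 CPM at 6 h and 482, 320.0 and 665 CPM at 24 h (-1.80 on the log2 scale with an SE of 0.19, adjusted p = 8.90e-06 in edgeR), and its sham mean was 121 CPM. Mt2 had 41.2, 29.8 and 33.1 CPM at 6 h and 9.88, 5.09 and 15.6 CPM at 24 h, and Cp, ceruloplasmin, fell by 0.69 on the log2 scale. Ftl1, ferritin light chain, rose with 241, 215 and 237 CPM at 6 h and 317, 345 and 590.3 CPM at 24 h, highest in 24 h replicate 3; reads of its many pseudogenes make this level uncertain. Of the 15, 3 rose and 5 fell without the 2 set-apart libraries. In the group of aryl hydrocarbon receptor and cytochrome P450 genes 5 of 9 fell and 0 rose. Cyp1b1 had 32.4, 25.6 and 26.5 CPM at 6 h and 5.14, 4.85 and 8.71 CPM at 24 h (-2.19 on the log2 scale with an SE of 0.23, adjusted p = 8.71e-06 in edgeR; adjusted p = 0.00717 on the 6 libraries alone). Tiparp, a feedback inhibitor of the receptor, had 70.4, 38 and 29.7 CPM at 6 h and 17, 12.4 and 28.1 CPM at 24 h, and Cyp4b1 and Cyp27a1 fell by 0.55 and 0.88 on the log2 scale.

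**Figure D3:**
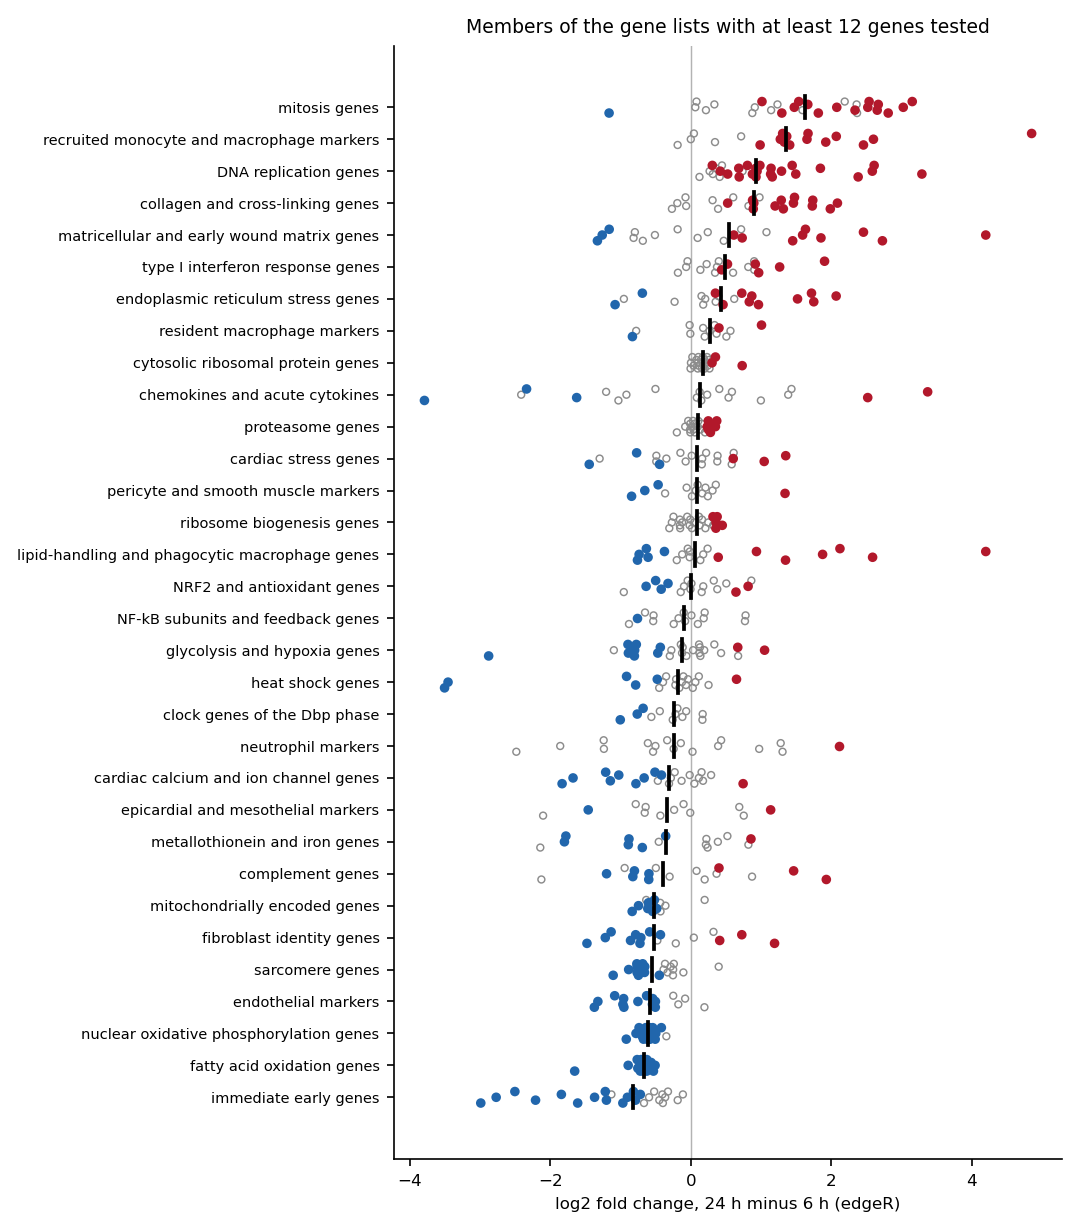
Log2 fold change from 6 h to 24 h (horizontal axis) of every tested member of the lists with at least 12 genes tested, 1 line per list; filled red and blue points passed the edgeR test as higher and lower, open points did not, and black bars are medians. All 22 fatty acid oxidation genes lie left of 0 and all 29 DNA replication genes right of it, while chemokines and neutrophil markers spread to both sides.

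The other groups place these differences in the course of the infarct; since the same 6 h and 24 h libraries made the calls, the counts are descriptions. Of the 2311 genes higher at 24 h, the sham mean was below both times for 1001 (43.3%), between them for 1065 (46.1%) and above both for 245 (10.6%). Of the 2230 lower genes, sham was below both for 432 (19.4%), between them for 969 (43.5%) and above both for 829 (37.2%). The 72 h mean lay beyond the 24 h mean in the same direction for 1671 of the increases (72.3%) and 1725 of the decreases (77.4%). Fos, Hspa1a and Pdk4 were among the genes whose 6 h level was above sham and whose 24 h level lay between, as were Mt1 and Sele, while Acads and Cox7a1 had 6 h levels near sham.

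**Figure D4:**
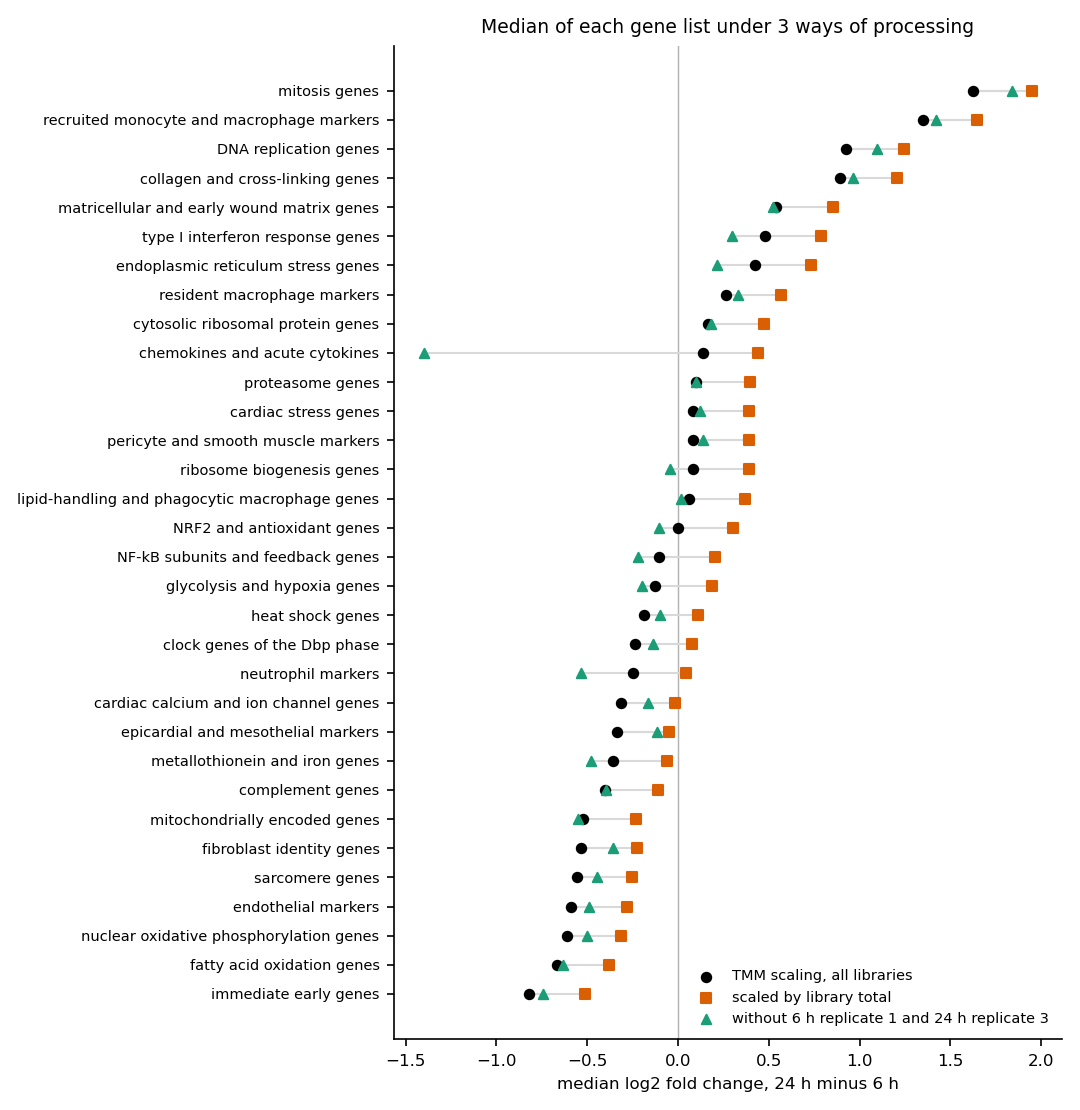
Median log2 fold change, 24 h minus 6 h (horizontal axis), of each list with at least 12 genes tested, under TMM scaling (black circles), library total scaling (orange squares) and without 6 h replicate 1 and 24 h replicate 3 (green triangles). Library total scaling shifts the lists to the right, as it moves the median of all genes from 0.02 to 0.33, and leaving out the 2 libraries moves the chemokine and cytokine list most, from 0.14 to -1.40.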

How the data were processed

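RNA of the infarcted left ventricle was enriched for poly(A) with oligo dT and sequenced, 1 library per mouse and 3 per group. The authors deposited read counts per Ensembl gene, which entered every main test, and FPKM values (counts per kilobase and per M counts). Per the submitters' processing notes, cutadapt 1.18, HISAT2 2.1.0, featureCounts and the build mm10 were used; the annotation and the use of strand are not given in the sources used here, so overlapping and antisense genes cannot be told apart. FPKM lengths equalled GENCODE M21 exon lengths for 87.3% of 11690 genes. In the deposited FPKM, the columns of 6 h replicates 2 and 3 were exchanged relative to the counts, which leaves group values unchanged.

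Genes were filtered with filterByExpr (14272 removed), scaled by TMM and fitted with edgeR 4.0.16 (R 4.3.3) by the robust quasi-likelihood method on all 18 libraries, which then share an estimate of the spread, with the contrast 24 h minus 6 h and Benjamini-Hochberg adjustment at 0.05. The SE is the log2 fold change divided by the square root of F. Tested on simulated counts for this comparison (16081 genes in the step), 40% of genes changed 1.5-fold, 96% changed 2-fold, and 100% changed 4-fold or 8-fold were recovered. These shares describe the simulated spread and are not the power of the comparison in these mice. Real genes could vary widely within a time. At 24 h Arg1 had 140.1, 52.3 and 602 CPM and S100a9 had 59.5, 10.1 and 255 CPM. Recovery of changes in genes with such spread was not tested. Reads without molecular identifiers are not independent molecules. The p-values set the difference between the times against the spread between mice, pooled over all groups in the main fit.

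Named genes were the 12 largest increases and 12 largest decreases among calls whose mean count reached 50 and whose groups did not overlap, leaving out predicted genes, and up to 4 members with the smallest adjusted p of each of 40 gene lists. Genes named beyond this were chosen after their values were seen: Creld2, Hspa5, Hsp90b1, Dnajc3, Il6, Cenpf, Ppp1r15a, Herpud1, Eno1, Pgam1, Thbs2, Ccn1, Adamts1, S100a9, Cxcl5, Dnajb1, Bag3, Ucp3, Cd36, Lpl, Mcm10, Isg15, Xirp2, Col15a1, Lum and Cd248, besides members named to complete a small count. A few genes that the rule picks are not reported here. The comparison, members and lists were chosen with earlier results of these data known. Promoters came from RefSeq (GRCm38.p6). Planned searches not described above covered immediate early genes and metallothionein and iron genes. TGACGTCA stood in 3 of 27 promoters of the former (11.1%) against 1.79% of all. TGCGCNC or TGCACNC stood in 5 of 16 promoters of the latter (31.25%) against 25.7% of all. The alternatives were DESeq2 1.42.0, RLE and library total scaling, limma 3.58.1 on log2 FPKM plus 1 or 0.1, other count filters, a minimum log2 fold change of 0.58, the 6 libraries alone, a replicate block, and each library, or both set-apart libraries, left out.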

Additional observations from a re-analysis of the deposited data

How the results depend on the processing

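DESeq2, RLE scaling and no count filter kept all counts of calls within 1.5 times. The 6 libraries alone gave 1024 calls (539 higher, 485 lower, 516 of at least 2-fold). This fit estimates the spread from fewer samples, and only from the times compared. Libraries of another group could lie closer together, with summed neutrophil markers of 127, 152 and 148 CPM at 72 h and 362, 131 and 1297 CPM at 24 h. The main fit pools the spread over all groups, so its p-values can be too small for genes that vary more at 6 h and 24 h. How far this changed the number of calls was not tested. Library total scaling gave 6880 calls (6052 higher, 828 lower), limma on log2(FPKM + 0.1) 5906 higher and 851 lower, and limma on log2(FPKM + 1) 5655 higher, 820 lower and 394 of at least 2-fold. Requiring 10 counts in each library left 760 of at least 2-fold, and testing against a log2 fold change of 0.58 left 529 (332 higher, 197 lower); both tests ask for more. Leaving out 1 library gave 3607 to 5028 calls (1834 to 2635 higher, 1701 to 2393 lower, 1006 to 1529 of at least 2-fold). A replicate block gave 4451 calls (2240 higher, 2211 lower, 1138 of at least 2-fold). Same-numbered libraries correlated at r = -0.22, 0.12 and -0.26 in their deviations from the group means. The largest r, 0.45, was that of 6 h replicate 1 with 24 h replicate 3. With 3 libraries per time, whose deviations sum to 0, these values cannot decide whether the numbers pair the mice.

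Of the 197 named genes, 102 kept direction and side of the threshold with the 6 libraries alone, and 87 lost it. Signs turned as follows, and the cause was not tested. Without both set-apart libraries the log2 fold change was -0.25 for Il1a, 1.76 for Myl7 and 0.15 for Myl4. Without 24 h replicate 3 it was -0.44 for Il1a and -0.034 for Dnajc3. Without 6 h replicate 1 it was 1.78 for Myl7, 0.18 for Myl4 and 0.43 for S100a9, and without 6 h replicate 2 it was 0.66 for Krt8 and 0.24 for Mylpf. Tnni2 had 0.13 with library total scaling, 0.098 with FPKM + 0.1 and 0.062 with FPKM + 1. Mylpf, near 0, had 0.29, 0.30 and 0.14 in these, 0.0074 with no filter, 0.00011 with the 6 libraries alone, 0.012 with the block and 0.12 without 24 h replicate 2. Over the fits that left out 1 library, the log2 fold change ranged from -0.44 to 3.95 for Il1a, -1.36 to 0.66 for Krt8, -7.88 to 1.78 for Myl7, -3.91 to 0.18 for Myl4, -0.15 to 0.24 for Mylpf, -2.25 to 0.43 for S100a9 and -0.03 to 0.26 for Dnajc3.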

Other observations

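Clock genes differed between the times in part. Of 12 genes of the Dbp phase 3 fell (13.7% of all genes did). Among them were Cry2, a repressor of the clock (60.1, 46.5 and 49.9 CPM at 6 h and 35.8, 32.2 and 29.6 CPM at 24 h, edgeR adjusted p = 0.00102), and Per1, another (171, 107 and 123 CPM at 6 h and 81.3, 84.7 and 70.3 CPM at 24 h). The median of the 12 was -0.24 and 0.08 under library total scaling. Without the 2 set-apart libraries 1 of the 12 fell and the median was -0.14. Of 7 genes of the opposite, Bmal1 phase, 3 fell, including Npas2, a partner of Bmal1 (2.44, 2.25 and 2.61 CPM at 6 h and 1.17, 1.38 and 1.13 CPM at 24 h). The hour of the day is not given in the labels, and the time of day cannot be told apart from the time after ligation. The letters CACGTG, the core of the E-box that clock factors bind, stood in 5 of 13 promoters of the Dbp phase genes (38.5%) against 7.15% of all.

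The antioxidant genes gave 4 decreases and 2 increases among 18, against 13.7% and 14.2% of all genes. Sod1 had 260.3, 234 and 302 CPM at 6 h and 210.2, 178 and 175 CPM at 24 h, and the glutathione peroxidase Gpx1 had 78.3, 82.4 and 77.9 CPM at 6 h and 109, 129 and 134 CPM at 24 h. Cytosolic ribosomal protein genes gave 3 increases among 24 with TMM scaling, near the 14.2% of all genes, and 24 under library total scaling, where 37.1% of all genes were called higher. Proteasome genes gave 7 increases among 23, with Psma5 at 50.3, 49.6 and 51.3 CPM at 6 h and 61.9, 59.9 and 73.4 CPM at 24 h. Without the 2 set-apart libraries 2 of the 23 rose (11.2% of all genes did), and with the 6 libraries alone 0 did (3.64% of all genes). Of 14 lymphocyte markers 9 passed the filter on low counts, and the summed level of the list was 9.42, 6.6 and 5.65 CPM at 6 h and 4.79, 7.6 and 8.66 CPM at 24 h.

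Haemoglobin genes were called lower in 2 of the 5 red cell markers tested, Hbb-bt (81.4, 41.6 and 91.1 CPM at 6 h and 45.2, 34.3 and 40.1 CPM at 24 h) and Hbb-bs; these are near-identical copies and their split is uncertain. The times overlapped for both, and 0 of the 5 were called lower without the 2 set-apart libraries, with the 6 libraries alone or under library total scaling. Of 12 epicardial and mesothelial markers 1 rose, 1 fell and 10 were not called, fewer than the 14.2% and 13.7% of all genes. Wt1, a factor of the epicardium, fell (20.8, 8.47 and 10.9 CPM at 6 h and 4.75, 4.49 and 5.31 CPM at 24 h; edgeR adjusted p = 0.00153), and Aldh1a2, which makes retinoic acid there, rose (34.3, 27 and 20.7 CPM at 6 h and 38.8, 65.9 and 75.2 CPM at 24 h; edgeR adjusted p = 0.00262).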
